A study of Homo sapiens with 23 samples.

Results

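Interferon-stimulated genes are genes that a cell switches on after interferon has bound its receptor, and 43 of them are described here across xenograft tumours of cells labelled WT or KO for the human Flower gene. They were chosen with earlier results of these data known, so the shares of all genes set beside their counts are no independent test. They were taken by gene name from the table of normalized values, with a minimum mean of 10. All 43 passed, of 16063 genes that passed the same minimum and 27589 genes in the table. By the role of their products they fall into 5 genes of ADP-ribosylation, 4 IFIT and 3 IFITM genes, 5 genes of the ISG15 system, 10 other antiviral effectors, 9 other interferon-induced genes, 4 transcription factors and 3 guanylate-binding proteins.

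The tumours grew from SCC-13, an established human line of cutaneous squamous cell carcinoma, a cancer of keratinocytes. The cells carried either intact hFWE (human Flower, gene symbol CACFD1), called WT, or a knockout of it, called KO. They had been injected in Matrigel under the skin of NCG mice (NOD-Prkdcem26Cd52Il2rgem26Cd22/NjuCrl), a strain without functional T, B and natural killer cells that keeps macrophages, fibroblasts and vessels. Tumours were taken on day 26, 12 from WT cells (line 5B2, line 6C9 and line 6C10, 4 each) and 11 from KO cells (3 of line 2F7 and 4 each of lines 2B8 and 1G10). No drug or interferon treatment is named, and the age of the mice, the way the lines were derived and whether a line is a single clone were not stated in the labels. No line holds both genotypes, so a genotype effect can be told from a line effect only over 3 lines a side. Tumours are not tied to mice in the labels, and p-values therefore cover the spread between these tumours, some of which may share a host.

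Type I interferons bind the receptor IFNAR1/IFNAR2, whose kinases JAK1 and TYK2 phosphorylate STAT proteins. STAT2 is part, with IRF9, of the complex ISGF3, which binds the interferon-stimulated response element (ISRE) in promoters, whereas interferon gamma acts through the gamma-activated site (GAS). The induced proteins bind viral RNA, block viral entry, attach ISG15 or ADP-ribose to other proteins, or raise the amount of the signalling factors themselves, and many carcinomas express part of the set without an infection.

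Estimated assigned reads were between 13082214 and 22093213 in 21 libraries and lower in the WT libraries 5532 and 5533, both of line 6C9, at 7011069 and 2037751. Library 5533 also stood apart in its median correlation with the other libraries (0.763, against at least 0.943 elsewhere) and in its mitochondrial share (6.21%, against 1.39% to 3.50%). A single read was worth 9.14 units of the normalized value there. It held the highest value of all tumours for 9 of the 43 genes, with a median exon length of 1543 bases, and the lowest for 18, with a median of 5944 bases, so results are also given without it. CACFD1 itself was at 373 ± 47.1 (SD, n = 12) in WT tumours and 276 ± 58.9 (SD, n = 11) in KO tumours, with ranges of 286 to 432 and 167 to 370. Its difference was -0.45 ± 0.11 (limma, adjusted p = 0.227) and the ranges overlapped, so its RNA level does not by itself separate the labelled genotypes. The summed level of 8 keratinocyte markers (KRT5, KRT14, TP63 and others) was 729752 to 1434410 in WT (median 976884) and 983092 to 1392990 in KO tumours (median 1185160).

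The mean log2 level was higher in KO than in WT tumours for 40 of the 43 genes, and none of the differences passed the threshold. The median log2 difference was 0.30, with quartiles of 0.17 and 0.68, against a median of 0.03 over all tested genes, and 54.2% of all tested genes had a difference above 0. The widest differences were those of MX2 (log2 1.60), CMPK2 (1.44), IFIT2 (1.23) and IFI44L (1.01), and the genes below WT were GBP2 (-0.29), IRF1 (-0.09) and BST2 (-0.01). In limma's fit of all tested genes, 0 of 43 members passed an adjusted p of 0.05, beside 0.00623% of all genes, and the lowest adjusted p among the 43 was 0.227. At an unadjusted p under 0.05, 21 genes were higher in KO tumours and 0 lower, beside 5.9% of all genes higher and 6.63% lower. Without library 5533 the counts were 26 higher beside 6.37% of all genes, a median of 0.32 and again 40 genes above WT, and 0 passed the threshold. Without KO line 2B8 they were 11 higher beside a median of 0.20, where 5.34% of all genes reached that level in either direction. The line block had a consensus correlation of 0.0077, so tumours of a line counted nearly as separate replicates. With line means as samples, 15 were higher, with a median of 0.27, beside 9.4% of all genes in either direction, and 0 passed the threshold. Of 8 keratinocyte markers 7 also lay above WT in KO tumours, among them KRT5 and TP63 (both 0.33), DSG3 (0.38) and COL17A1 (0.40), and 0 passed the threshold. Their part in the members' differences was not tested. In bulk tumours fewer cells of a type and less RNA per cell cannot be told apart.

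**Figure D1:**
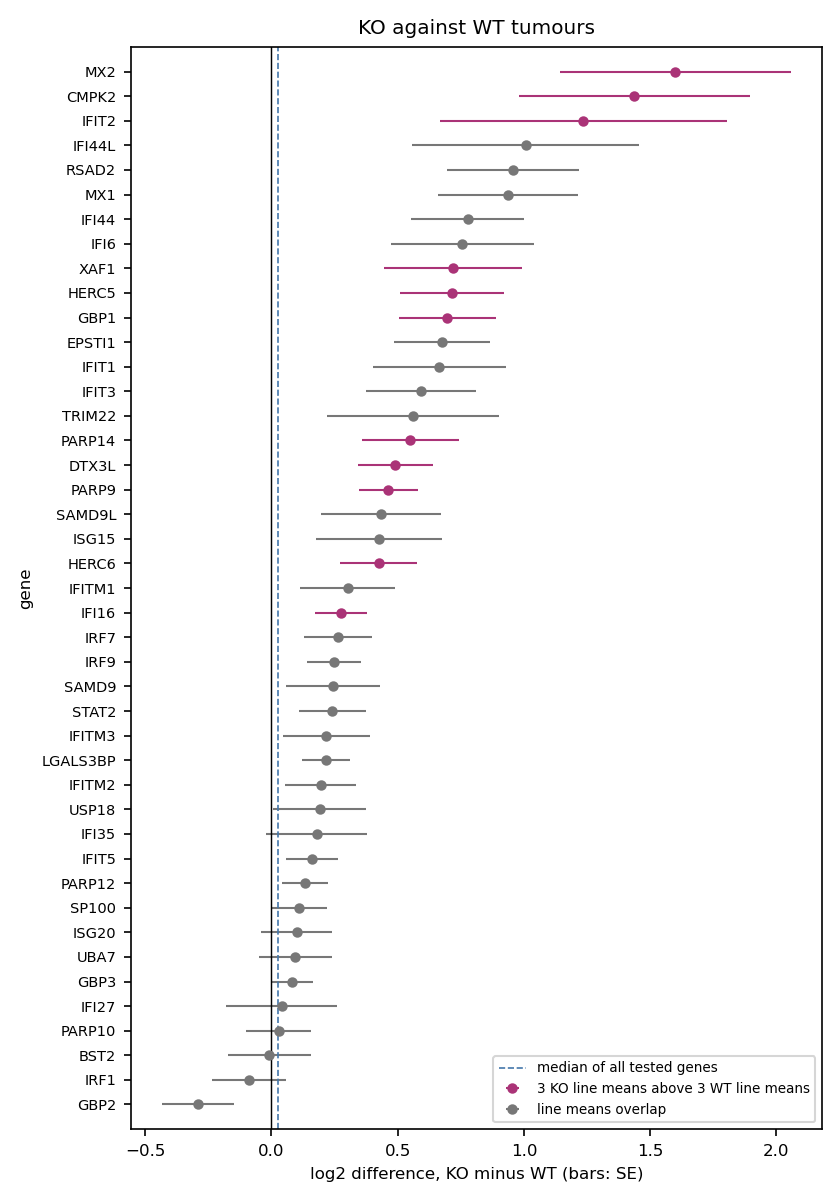
Difference between KO and WT tumours for each of the 43 genes, in log2 units on the x axis, with bars of 1 SE from limma. Points lie between -0.29 (GBP2) and 1.60 (MX2), 40 lie to the right of 0, and the dashed line is the median of all tested genes at 0.03. Coloured points mark the 11 genes whose 3 KO line means were all above the 3 WT line means.

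The plot of differences orders the genes from MX2 at the top to GBP2 at the bottom, and the coloured points, whose line means were separated, are spread from the top to the middle of that order. Those 11 genes were PARP9, DTX3L, PARP14, IFIT2, HERC5, HERC6, CMPK2, MX2, IFI16, XAF1 and GBP1, beside 9.05% of all genes. No member had its 3 KO line means below the WT line means, which 9.26% of all genes had. The separation rested in part on the shallow libraries of line 6C9. Without 5533 it held for 9 genes (6.99% of all genes), with XAF1 and GBP1 lost, and without both 5532 and 5533 for DTX3L, PARP14, HERC5 and HERC6 (6.18% of all genes). For 7 genes, PARP9, HERC5, CMPK2, MX2, IFI44, IRF7 and GBP1, all 11 KO tumours lay above the median of the WT tumours, beside 2.38% of all genes. None of the members had all KO tumours above all WT tumours, and the share of all genes that did was not computed. With limma's library quality weights, which gave 5533 a weight of 0.0287, 14 genes passed the threshold, all higher in KO tumours, beside 4.59% of all genes.

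Promoters of some members are shown here with any match to the letters of the ISRE. Sequences are from RefSeq on GRCh38.p14, 250 bases upstream of the start, 5′ to 3′ on the strand of the gene, with a match to the ISRE letters in capitals. Shown are the genes with the largest moderated statistic that had an entry, PARP9, RSAD2 and GBP1, and CMPK2, the highest-ranked without a match.
PARP9 chr3:122564301-122564550: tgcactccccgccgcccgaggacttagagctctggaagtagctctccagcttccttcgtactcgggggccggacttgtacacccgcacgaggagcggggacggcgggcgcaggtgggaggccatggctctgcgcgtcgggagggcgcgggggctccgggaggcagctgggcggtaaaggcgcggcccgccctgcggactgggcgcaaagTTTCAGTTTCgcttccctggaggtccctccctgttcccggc
RSAD2 chr2:6877527-6877776: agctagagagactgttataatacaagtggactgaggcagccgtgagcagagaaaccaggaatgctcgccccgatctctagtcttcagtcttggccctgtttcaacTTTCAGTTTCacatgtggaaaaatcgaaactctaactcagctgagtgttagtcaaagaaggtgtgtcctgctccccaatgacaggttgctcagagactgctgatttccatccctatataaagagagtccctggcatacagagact
GBP1 chr1:89065209-89065458: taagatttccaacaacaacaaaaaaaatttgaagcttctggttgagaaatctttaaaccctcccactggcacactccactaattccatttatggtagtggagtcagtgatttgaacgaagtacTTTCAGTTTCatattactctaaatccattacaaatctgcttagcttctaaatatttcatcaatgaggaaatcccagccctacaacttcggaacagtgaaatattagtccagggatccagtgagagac
CMPK2 chr2:6866636-6866885: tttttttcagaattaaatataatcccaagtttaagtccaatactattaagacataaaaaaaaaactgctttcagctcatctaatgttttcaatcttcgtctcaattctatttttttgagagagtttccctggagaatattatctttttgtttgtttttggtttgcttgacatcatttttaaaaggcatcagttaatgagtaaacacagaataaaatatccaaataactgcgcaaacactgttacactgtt
The match in each of the first 3 reads the same on the strand of the gene, and it starts 41 bases before the start of PARP9, 145 before that of RSAD2 and 127 before that of GBP1. By their deposited spans CMPK2 and RSAD2 are head-to-head neighbours on chromosome 2. The RSAD2 span starts at 6865557, however, and the printed RSAD2 window at 6877527, beyond the end of the CMPK2 span at 6866635. None of the 3 CMPK2 windows held the letters, and the first of them is shown. PARP9 and RSAD2 had 2 windows each, of which a window with the match is shown. Over windows from 250 bases before to 50 after the start, the ISRE letters (GAAA, any 2 bases, then GAAA) on either strand were found in 24 of the 34 members with an entry (70.6%), against 3.96% of the 10814 tested genes with an entry. The GAS letters TTCNNNGAA were found in 10 of 34 (29.4%), against 8.29%. A match is a description of letters, not a site in use. The ISRE letters were in 5 of 9 genes with separated line means and in 19 of 25 of the others.

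Members also lie side by side in the genome, and 22 of the 43 are within 100000 bases of another. PARP9 and DTX3L on chromosome 3 overlap by 240 bases head to head and RSAD2 and CMPK2 by 1079 bases. IFIT genes lie together on chromosome 10, IFITM genes on 11, HERC5 and HERC6 on 4, MX1 and MX2 on 21, SAMD9 and SAMD9L on 7, and IFI44 with IFI44L and the GBP genes on 1. In all, 12 members overlap another tested gene, and although the libraries were directional, no source used here says whether the counting used strand, so the split of reads between overlapping genes is uncertain. The same holds for the near-identical IFITM genes.

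**Figure D2:**
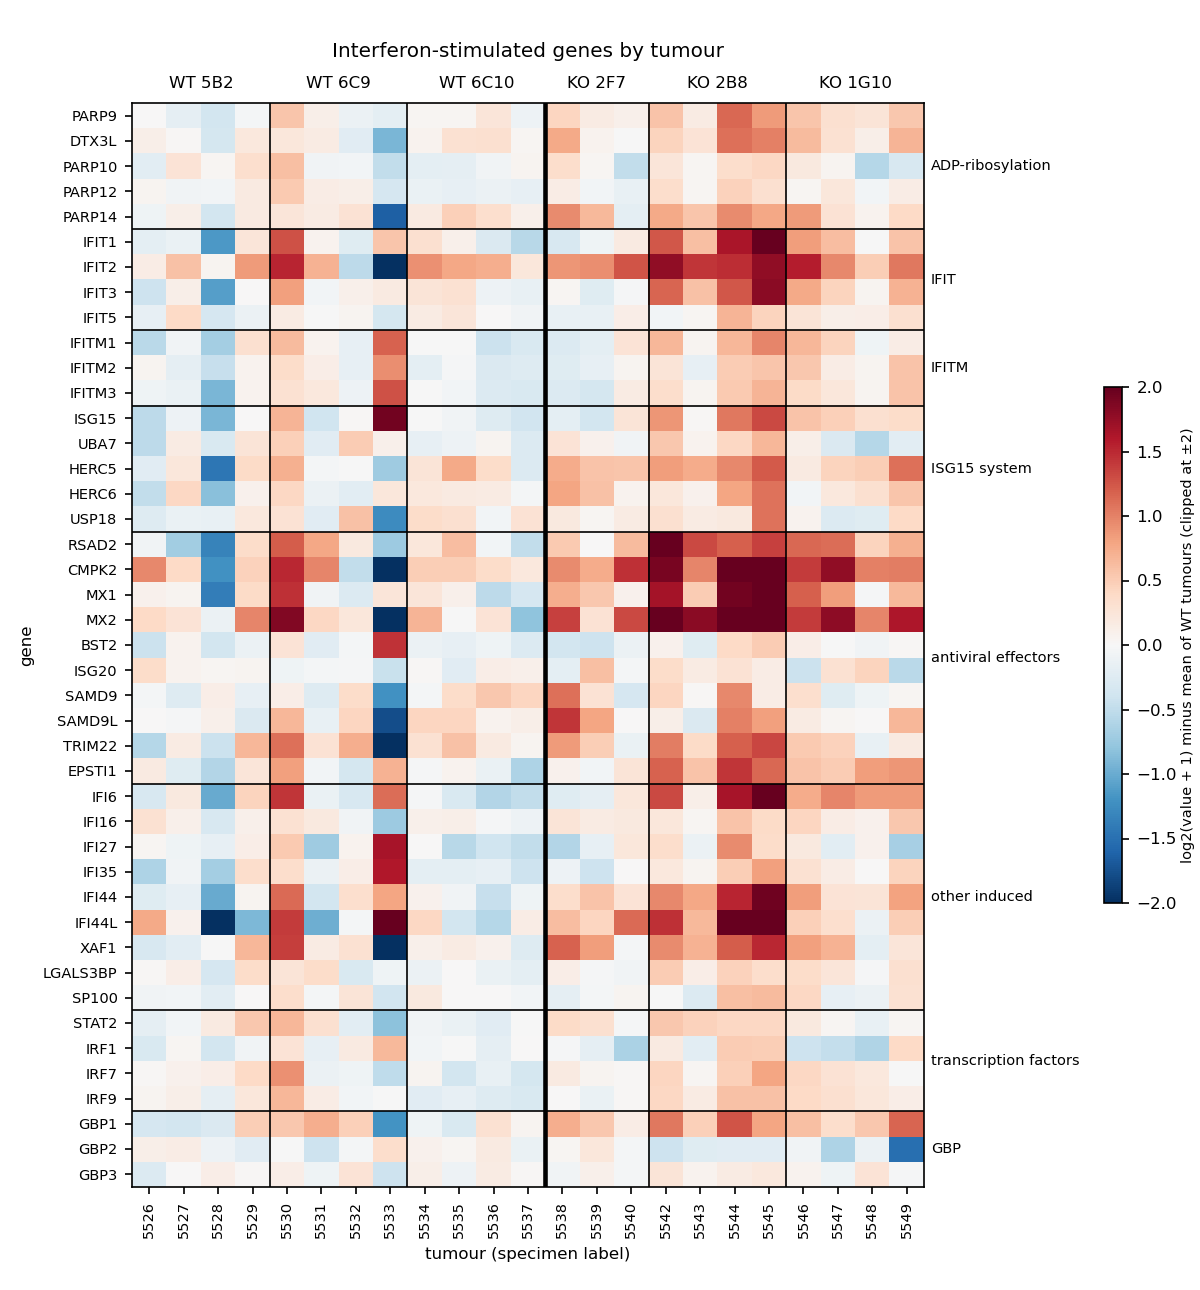
Each gene (rows, by role) in each tumour (columns, by genotype and line), as log2(value + 1) minus the mean of the WT tumours, with colours clipped at ±2. Red cells fill most of the columns of KO line 2B8, of which 5545 and 5544 are the deepest, and of WT tumour 5530, while 5528 is blue in most rows and 5533 mixes both extremes.

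In the coloured map of genes by tumour the columns differ as much as the genotypes do, so the genes are described by role with their values by tumour. Differences in log2 units are KO minus WT on the log2(value + 1) scale with the SE of limma, and a level is the deposited normalized value. The counts by role stand beside 54.2% of all tested genes above WT. At an unadjusted p under 0.05, 5.9% of all genes were higher and 6.63% lower.

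The ADP-ribosylation genes had a median difference of 0.46, and 3 of the 5 reached an unadjusted p under 0.05, all of them higher in KO tumours. PARP9 (ENSG00000138496, hg38 chromosome 3, 122527924 to 122564577, minus strand), an ADP-ribosyltransferase family member that works as a pair with the ubiquitin ligase DTX3L, had the smallest p of the 43 genes. Its values ran from 244 through a median of 309 to 462 in WT tumours and from 338 through 421 to 697 in KO tumours. The WT median was exceeded in all 11 KO tumours and 3 lay above every WT tumour, while WT tumour 5530 was higher than 8 of the 11 KO tumours. The difference was 0.46 ± 0.12 (SE), with an adjusted p of 0.227 in limma. By line the means were 285 ± 31.4 (5B2), 342 ± 84.9 (6C9) and 326 ± 32.2 (6C10) in WT, and 370 ± 44.3 (2F7), 519 ± 147 (2B8) and 420 ± 43.8 (1G10) in KO (SD over tumours).

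DTX3L, the partner of PARP9, ran from 128 through 258 to 301 in WT and from 240 through 329 to 523 in KO tumours, with 6 KO tumours above every WT tumour. The lowest WT value was that of 5533, and the difference of 0.49 ± 0.15 was 0.41 without it. PARP14, a large mono-ADP-ribosyltransferase, ran from 119 through 417 to 518 in WT and from 322 through 579 to 718 in KO. Here 7 KO tumours lay above every WT tumour, and KO tumour 5540 of line 2F7, at 322, lay below all WT tumours but 5528 and 5533. Its difference was 0.55 ± 0.19, and 0.40 without 5533. PARP12, which also adds single ADP-ribose units and acts against RNA viruses, differed by 0.13. PARP10, of the same enzyme class, was among the genes that differed least, at 0.03. It ran from 402 through 545 to 861 in WT and 384 through 588 to 760 in KO, the groups overlapped over nearly their whole range, and its sign turned to -0.02 without 5533.

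The IFIT genes, whose products bind viral RNA that lacks the host's cap marks, had a median difference of 0.63, and 3 of 4 were higher at an unadjusted p under 0.05. IFIT1 was at 162, 170, 83.5 and 221 in line 5B2, 451, 195, 158 and 274 in 6C9, and 234, 199, 152 and 127 in 6C10. In KO tumours it was at 150, 176 and 211 in line 2F7, 441, 284, 582 and 765 in 2B8, and 335, 287, 186 and 276 in 1G10. Line 2F7 lay within the WT range, all 2B8 tumours lay above every WT tumour but 5530, and 1G10 overlapped both. The genotype difference was 0.66 ± 0.26 (limma, adjusted p = 0.321).

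IFIT3, which stabilizes IFIT1 on RNA, had the smallest p of the 43 genes for a difference among the KO lines (limma F test, adjusted p = 1). It was at 191, 157 and 184 in 2F7, 417, 278, 442 and 653 in 2B8 and 314, 253, 194 and 300 in 1G10, against 86 through 193 to 330 in WT tumours. No 2F7 tumour was above the WT median, all 2B8 and 1G10 tumours were, and 3 of them lay above every WT tumour. IFIT2, which also binds RNA, was at 115, 118 and 149 in 2F7, 214, 168, 174 and 214 in 2B8 and 186, 121, 87.6 and 130 in 1G10, against 0 (5533) through 97.3 to 180 (5530) in WT tumours. All but 1 KO tumour were above the WT median, and the listed 0 in 5533 is below what 1 read is worth there. The difference of 1.23 ± 0.57 was 0.69 without 5533 (limma, adjusted p = 0.184). IFIT5, the family member that lies at the end of the cluster, differed by 0.16.

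The IFITM genes, which block viral fusion at cell membranes, had differences of 0.30 (IFITM1), 0.19 (IFITM2) and 0.22 (IFITM3), and 0 of the 3 reached an unadjusted p under 0.05. IFITM3 ran from 1292 through 2310 to 5899 in WT and from 1905 through 2855 to 3901 in KO tumours. Its highest value was in 5533, and the next WT tumour, 5530 at 2990, lay above 6 of the 11 KO tumours. By line its KO means were 2205 ± 439 (2F7), 3250 ± 590 (2B8) and 3040 ± 459 (1G10), with 2F7 near the WT lines 5B2 (2090 ± 551) and 6C10 (2179 ± 227). Without 5533 the difference of IFITM3 was 0.33 in place of 0.22.

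In the ISG15 system, in which the ubiquitin-like protein ISG15 is attached to others through UBA7 and HERC5 and removed by USP18, 2 of 5 genes were higher at an unadjusted p under 0.05. HERC5, the main human ISG15 ligase, ran from 16 through 49.1 to 77 in WT and from 51.7 through 76.3 to 107 in KO tumours. Every KO value was above the WT median, 4 lay above every WT tumour, and the WT values closest to them were those of 5535 and 5530. The difference was 0.72 ± 0.21 (limma, adjusted p = 0.227), and it was 0.65 without 5533. HERC6, a relative of HERC5, ran from 64.9 through 128 to 157 in WT and 113 through 147 to 249 in KO, and 5 KO tumours lay above every WT tumour, with a difference of 0.42 ± 0.15, and 0.44 without 5533. ISG15 itself, at 0.43 ± 0.25, had its highest value of all tumours in 5533 (1069) and its lowest in 5528 (148). Without 5533 its difference was 0.60 (limma, adjusted p = 0.199).

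UBA7, the enzyme that activates ISG15, was spread over the KO lines (range of line means 0.66) and differed by 0.09 between genotypes. It was at 175, 154 and 138 in 2F7, 210, 152, 194 and 229 in 2B8 and 156, 118, 97.1 and 125 in 1G10, against 100 through 142 to 205 in WT tumours. Only the 2B8 tumours 5542 and 5545 lay above the highest WT value, and 5548 of 1G10 lay below the lowest. Lines 2B8 and 1G10 differed by 0.66 ± 0.20 (limma, adjusted p = 1). USP18, the protease that removes ISG15 and damps the receptor, differed by 0.19, and by 0.08 without 5533.

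Among the antiviral effectors the median difference was 0.62, and 5 of 10 were higher at an unadjusted p under 0.05. MX2, a GTPase that acts on retroviruses and herpesviruses, had the widest difference. It was at 44.3, 20.5 and 43 in 2F7, 102, 60.3, 88 and 78.2 in 2B8 and 45.4, 60, 33.8 and 53.1 in 1G10. In WT tumours it ran from 0 in 5533 through 20.3 to 62.4 in 5530. All KO tumours were above the WT median, and apart from 5530 no WT tumour exceeded 33.6. The difference was 1.60 ± 0.46 (limma, adjusted p = 0.227), and 1.22 without 5533. CMPK2, a mitochondrial nucleotide kinase, was at 33.6, 28.8 and 48.3 in 2F7, 65.7, 34, 74.6 and 102 in 2B8 and 46.3, 59.9, 34.8 and 35.4 in 1G10. Its WT values ran from 0 in 5533 through 23.1 to 49.8 in 5530, and 4 KO tumours lay above all of them. The difference of 1.44 ± 0.46 was 1.05 without 5533 and 0.94 without 5532 as well.

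RSAD2 (viperin), which makes a chain-terminating nucleotide and whose gene span overlaps that of CMPK2, was at 88.6, 61.5 and 95.5 in 2F7, 262, 153, 141 and 159 in 2B8 and 136, 133, 83.4 and 101 in 1G10. Its WT values ran from 23.6 in 5528 through 64.4 to 142 in 5530, so that 3 KO tumours, all of 2B8, lay above every WT tumour. The difference was 0.96 ± 0.26 (limma, adjusted p = 0.227). EPSTI1, a gene first described in epithelium next to stroma, differed by 0.67 ± 0.19 between genotypes and had a range of 0.98 among the KO line means, both without passing the threshold. It was at 71.8, 65.2 and 80.8 in 2F7, 154, 101, 184 and 150 in 2B8 and 101, 96.1, 121 and 126 in 1G10, against 43.7 through 65.6 to 120 in WT tumours. Line 2F7 lay inside the WT range, whereas 5 tumours of the other KO lines lay above it. MX1, the relative of MX2 that acts on influenza viruses, differed by 0.94 ± 0.28, with line means of 247, 579 and 295 in 2F7, 2B8 and 1G10.

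The remaining effectors were nearer to WT. BST2 (tetherin), which holds budding viruses at the cell surface, was the gene that differed least, at -0.01 ± 0.16. It ran from 1890 through 2348 to 6952 in WT tumours and from 1904 through 2534 to 3599 in KO, the groups overlapped throughout, and the sign turned to 0.12 without 5533, which held the highest value. SAMD9L and SAMD9, neighbouring genes that restrain translation, differed by 0.43 and 0.24, and by 0.27 and 0.13 without 5533. Line 2F7, and not 2B8, had the highest mean of SAMD9L, 118 ± 56.2 against 92.8 ± 37.4, and its SD was wide. TRIM22, a ubiquitin ligase that restricts viruses, differed by 0.56, and by 0.28 without 5533, and the exonuclease ISG20 by 0.10, and by 0.06 without 5533.

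Of the other interferon-induced genes 9 of 9 lay above WT and 6 were higher at an unadjusted p under 0.05, with a median difference of 0.28. IFI16, a sensor of DNA in the nucleus, ran from 831 through 1483 to 1714 in WT and from 1413 through 1625 to 2047 in KO tumours. It had close KO line means, 1594 (2F7), 1723 (2B8) and 1717 (1G10), and 4 KO tumours lay above every WT tumour. The difference was 0.28 ± 0.10, and 0.21 without 5533, the lowest WT tumour. XAF1, a pro-apoptotic partner of XIAP, ran from 25.8 (5533) through 118 to 290 (5530) in WT and from 96.2 through 196 to 317 in KO. Only 5545 exceeded 5530, and the difference of 0.72 ± 0.27 was 0.53 without 5533. IFI44, a cytoplasmic protein of little-known action, was above the WT median in all 11 KO tumours, at 101 through 145 to 327 against 41.3 through 79.8 to 187.

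IFI6, a small membrane protein, was at 0.76 ± 0.28 between genotypes, and it averaged 291 in 2F7 tumours, 817 in 2B8 tumours and 545 in 1G10 tumours, with 2F7 close to the 286 of WT line 5B2. IFI44L, whose level per kilobase was the lowest of the set, was between 0.843 and 45.7 in WT and between 7.39 and 76.7 in KO tumours, so its difference of 1.01 ± 0.45 is understated by the added 1. LGALS3BP, a secreted glycoprotein that binds galectins, ran from 2271 through 2788 to 3700 in WT and from 2711 through 3363 to 4078 in KO tumours. The groups overlapped, 10 of 11 KO tumours lay above the WT median, and the difference was 0.22 ± 0.10. IFI27, which is used in blood as a marker of viral infection, ran from 1078 through 1720 to 5563 in WT and from 1117 through 1884 to 3418 in KO. Its difference was 0.04 ± 0.22 and 0.19 without 5533, which held the highest value. IFI35, a partner of NMI, and SP100, a nuclear body protein, differed by 0.18 and 0.11, and by 0.32 and 0.07 without 5533.

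The transcription factors that carry the response had small differences. STAT2 was at 0.24 ± 0.13, IRF9, which completes ISGF3, at 0.25 ± 0.11, and IRF7, which drives interferon genes, at 0.26 ± 0.13. Of these, IRF9 reached an unadjusted p under 0.05 (limma, adjusted p = 0.348). The WT median was exceeded in all 11 KO tumours for IRF7 and in 10 for STAT2 and IRF9. IRF1, which answers interferon gamma most strongly, was at -0.09 ± 0.15, with 4 KO tumours below every WT tumour, and at -0.03 without 5533, which held its highest value. It averaged 190 in 2F7 tumours, 273 in those of 2B8 and 195 in those of 1G10, so 2B8 alone lay above WT lines 5B2 (202) and 6C10 (218).

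The guanylate-binding proteins, GTPases that attack the membranes of intracellular microbes and respond mainly to interferon gamma, did not lie on the same side of WT. GBP1 was at 107, 94.1 and 71.7 in 2F7, 135, 90, 155 and 112 in 2B8 and 97.9, 82.1, 94.3 and 146 in 1G10, against 27.4 through 63.7 to 107 in WT tumours. Every KO value was above the WT median, 5 were above every WT tumour, and the difference was 0.70 ± 0.19 (limma, adjusted p = 0.227). GBP2 was lower, at -0.29 ± 0.14, with WT values from 395 through 533 to 676. Its KO values were 540, 617 and 514 in 2F7, 393, 445, 448 and 450 in 2B8 and 500, 343, 486 and 186 in 1G10, so that 2F7 lay with WT and 3 tumours of the other lines below every WT tumour. GBP3 ran from 128 through 175 to 207 in WT and from 161 through 179 to 208 in KO and differed by 0.08 ± 0.08, and by 0.04 without 5533, the lowest WT tumour.

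**Figure D3:**
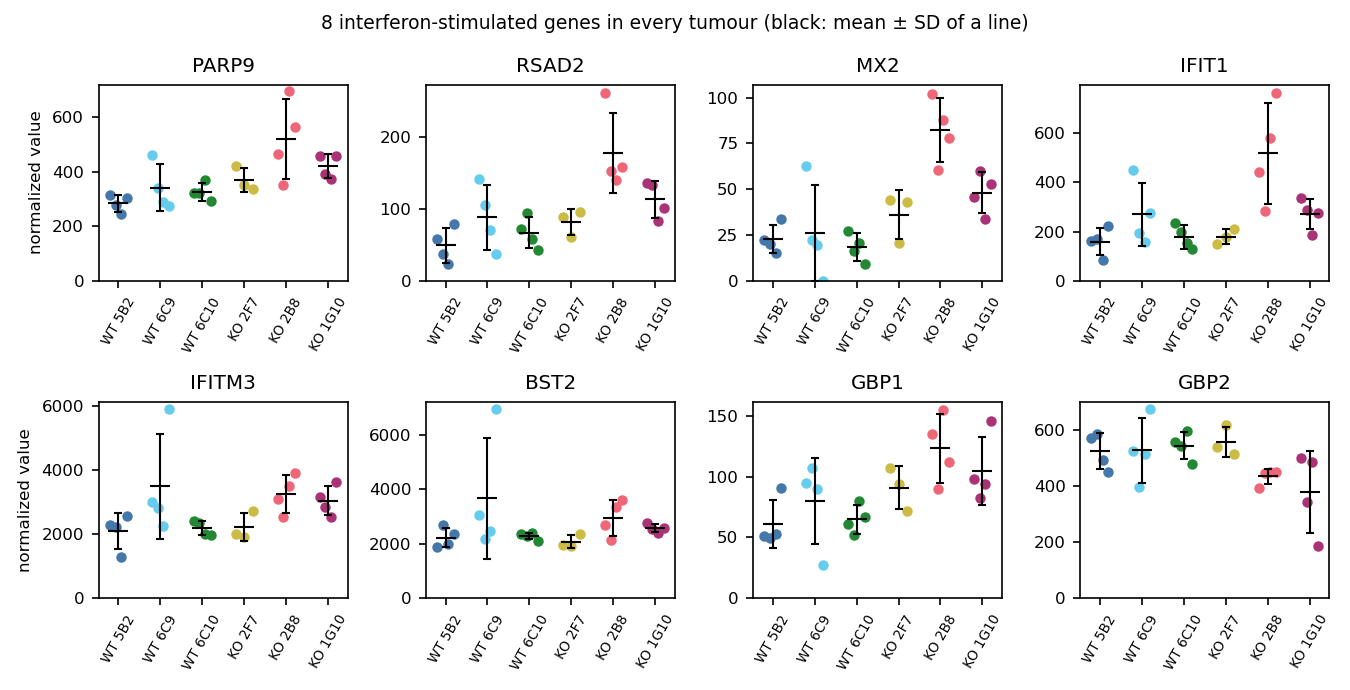
Normalized values (y axis, linear from 0) of 8 genes in every tumour by genotype and line, with black bars for the mean ± SD of a line. PARP9, RSAD2, MX2 and GBP1 are highest in KO line 2B8, IFIT1 in 2F7 lies with the WT lines, IFITM3 and BST2 have their highest point in WT tumour 5533, and GBP2 is lowest in 1G10.

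The plots of single genes show how unequal the KO lines were. A fit with 1 mean per line set each KO line against the average of the 3 WT lines. These 3 comparisons share the WT tumours, and their values are set side by side without a count of overlap. In line 2B8, 42 of 43 genes lay above WT with a median of 0.46, where 55.4% of all genes lay above. At an unadjusted p under 0.05, 26 were higher, beside 3.72% of all genes, and 0 lower, beside 4.47%. Without 5533, 33 were higher, beside 6.1%. The lowest adjusted p was 0.191 (IFIT3, limma), so 0 passed the threshold, beside 0% of all genes. Without WT tumour 5529 of line 5B2, 5 genes passed it (IFIT1, IFIT3, RSAD2, EPSTI1 and IFI44), beside 0.106% of all genes.

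In line 1G10, 36 genes lay above WT and 7 below, with a median of 0.29, where 52.8% of all genes lay above. At an unadjusted p under 0.05, 10 were higher, beside 4.03% of all genes, and 1 lower, GBP2, beside 5.62%. Without 5533 the count above WT was 33 and the median 0.25. In line 2F7, 26 genes lay above WT and 17 below, with a median of 0.10, where 53.9% of all genes lay above. None of the 43 reached an unadjusted p under 0.05 for a higher value, beside 1.38% of all genes, and none for a lower value, beside 1.1%. Without 5533, 28 lay above WT, the median was 0.09, and 2 reached it, HERC6 and SAMD9L, beside 2.92% of all genes.

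**Figure D4:**
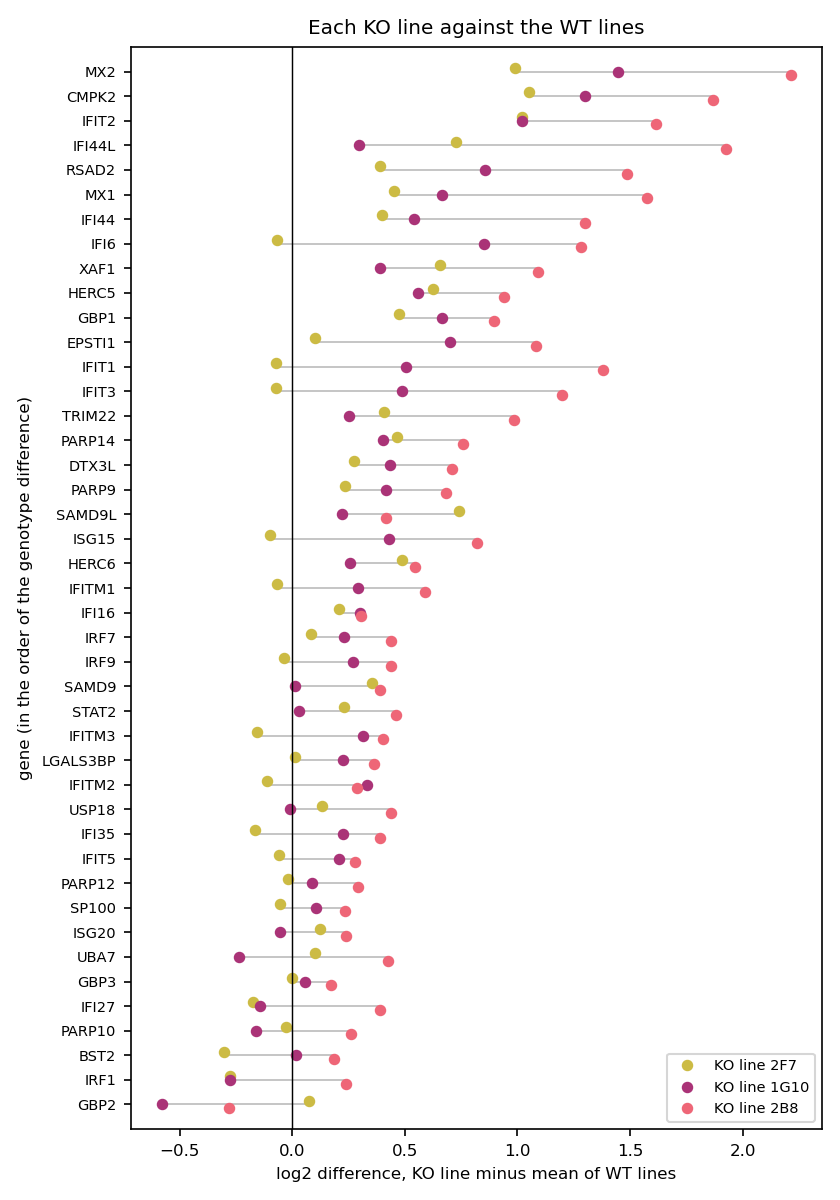
Log2 difference (x axis) of each KO line from the mean of the WT lines for each of the 43 genes, in the order of the genotype difference. The points of line 2B8 are rightmost for most genes, from -0.28 (GBP2) to 2.21 (MX2), and those of line 2F7 lie left of 0 for 17 genes.

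In the plot of line differences the points of 2F7 lie on both sides of 0, and none of its differences reached an unadjusted p under 0.05. They were above 0.9 for CMPK2 (1.05), IFIT2 (1.02) and MX2 (0.99), which are listed at 0 in 5533 and were 0.65, 0.48 and 0.58 without it. Differences of 2F7 were 0.74 for SAMD9L, 0.66 for XAF1 and 0.63 for HERC5. In the same line IFIT1 and IFIT3 (both -0.07), IFIT5 (-0.06), IFI6 (-0.07), ISG15 (-0.10), IFITM1 (-0.07), IFITM2 (-0.11) and IFITM3 (-0.16) lay below WT. Without 5533, IFITM1 (0.02), ISG15 (0.05) and IFI6 (0.00) were at or above 0, and the other 5 were below. Line 2B8 had its widest values at MX2 (2.21), IFI44L (1.93), CMPK2 (1.87), IFIT2 (1.61) and MX1 (1.58). Line 1G10 had MX2 (1.45), CMPK2 (1.30), IFIT2 (1.02), RSAD2 (0.85) and IFI6 (0.85), and GBP2 at -0.58. Without 5533 the values of 2B8 were 1.80 (MX2), 2.11 (IFI44L), 1.47 (CMPK2), 1.07 (IFIT2) and 1.57 (MX1), so IFI44L was wider than MX2. Those of 1G10 were then 1.03 (MX2), 0.90 (CMPK2), 0.47 (IFIT2), 0.73 (RSAD2) and 0.92 (IFI6), with GBP2 at -0.53. EPSTI1, at 0.75 in 1G10, then lay above IFIT2.

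Differences among lines of one genotype give the scale for these values. Among KO lines 0 of 43 genes passed limma's F test, beside 0% of all genes, and 11 reached an unadjusted p under 0.05, beside 2.22%. The smallest were those of IFIT3, IFIT1, EPSTI1 and UBA7, with ranges of 1.27, 1.45, 0.98 and 0.66 among line means. Line 2B8 was the highest for each of these 4, and 2F7 the lowest for all of them but UBA7, whose lowest line was 1G10. Among WT lines 0 of 43 passed, beside 0.00623% of all genes, and 7 reached an unadjusted p under 0.05, beside 10.3%. The median range among lines was 0.52 in KO and 0.47 in WT, against 0.24 and 0.42 over all genes. Without 5533, a WT library, it was 0.52 in KO and 0.37 in WT, against 0.23 and 0.27 over all genes. At an unadjusted p under 0.05 there were then 20 genes among KO lines, beside 5.96%, and 4 among WT lines, beside 10.1%.

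Directly between KO lines, 41 of 43 genes were higher in 2B8 than in 2F7, where 51.7% of all genes were, with a median of 0.43 and 14 at an unadjusted p under 0.05, beside 1.2%. Between 2B8 and 1G10, 42 of 43 were higher in 2B8, where 50% of all genes were, with a median of 0.38 and 7 at that level, beside 1.06%. Between 1G10 and 2F7, 27 were higher in 1G10, where 51.8% of all genes were, with a median of 0.14 and 2 at that level, beside 1.21%. In all 3 pairs 0 genes passed the threshold in limma, where every adjusted p was 1, and the pairs share their tumours. Without 5533, which enters through the estimate of spread, 20, 12 and 5 genes reached an unadjusted p under 0.05 in the same order of pairs, beside 3.57%, 2.39% and 3.84% of all genes.

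**Figure D5:**
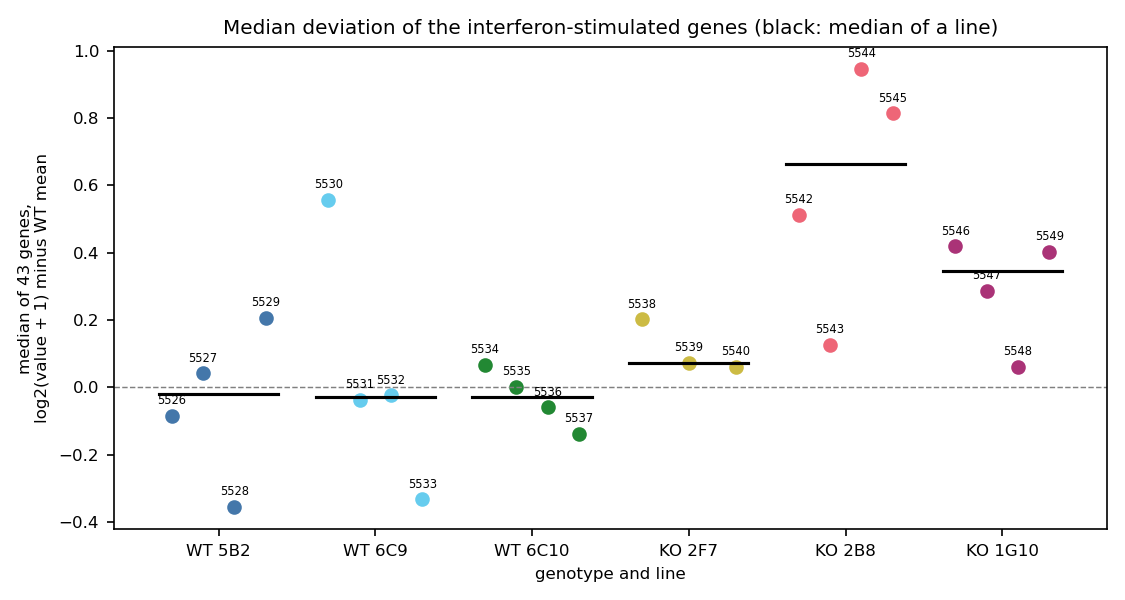
Median over the 43 genes of log2(value + 1) minus the mean of the WT tumours (y axis), for each tumour (points with specimen labels) by genotype and line, with a black bar at the median of each line. KO tumours lie between 0.06 and 0.95 and WT tumours between -0.36 and 0.56, with WT tumour 5530 above 9 of the 11 KO tumours.

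The genes were not evenly placed among the tumours of a line. The median deviation of the 43 genes from the WT mean was 0.06 to 0.20 in line 2F7, 0.13 to 0.95 in 2B8 and 0.06 to 0.42 in 1G10, and -0.36 to 0.56 over the WT tumours. WT tumour 5530 of line 6C9, at 0.56, lay above the KO median for 37 of the 43 genes and above all 2F7 tumours for 34. Setting 5533 aside, 5545 of 2B8 was the highest of 22 tumours for 19 genes and 5544 of 2B8 for 8, while 5543 was the lowest of its line for 38. WT tumour 5528 of line 5B2 was the lowest of 22 for 21 genes. For these counts by tumour the shares of all tested genes were not computed, so whether they are particular to the members was not tested. Line medians were -0.02, -0.03 and -0.03 in 5B2, 6C9 and 6C10 and 0.07, 0.66 and 0.35 in 2F7, 2B8 and 1G10.

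Per kilobase of exon (GENCODE 29 lengths), the mean level over all tumours was highest for BST2 (2367), IFITM3 (2026), LGALS3BP (868), IFITM1 (693) and IFI6 (523), and lowest for CMPK2 (8.46), ISG20 (5.40), MX2 (2.99) and IFI44L (1.64). PARP9 (42.2), DTX3L (50.7) and PARP14 (44.8) were close to each other on this scale, and MX1 (33.2) was above its neighbour MX2. Of the 4 genes with the widest genotype differences, MX2, CMPK2 and IFI44L were among the 4 lowest levels per kilobase, whereas BST2, the highest, differed least with all tumours. Without 5533 the differences were 1.22 (MX2), 1.05 (CMPK2), 1.22 (IFI44L) and 0.12 (BST2). BST2 was then no longer the least, since PARP10 was at -0.02 and IRF1 at -0.03.

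The rest of the interferon pathway was read from lists of other genes. The counts below stand beside 54.2% of all tested genes above WT. At an unadjusted p under 0.05, 5.9% of all genes were higher and 6.63% lower. Among ligands IFNE, an interferon of epithelia, passed the filter, and it differed by 0.46 ± 0.30 (limma, adjusted p = 0.504) and by 1.07 in line 2F7. Other interferon genes are not analysed here. Of 20 receptors and signalling genes 10 lay above and 10 below WT, and 0 passed the threshold. Named by their p are PTPN2, a phosphatase of JAK kinases (-0.14), and JAK1 (0.23). Of 20 genes that sense RNA or DNA, 15 lay above WT, 9 were higher and 2 lower at an unadjusted p under 0.05, and 0 passed. Smallest in p were the helicase DDX60L (0.55 ± 0.11, limma adjusted p = 0.222), the RNA sensor IFIH1 (0.47) and the kinase EIF2AK2 (0.48). The 2 lower were OASL (-0.50) and IKBKE (-0.29), and both lay below WT in each KO line. Of 42 further interferon-stimulated genes 32 lay above WT, 9 were higher and 1 lower at that level, and 0 passed. Those with the smallest p were SAMHD1, which depletes nucleotides (0.88), PLSCR1 (0.50) and NT5C3A (-0.60).

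Summed levels of markers of other cells overlapped between genotypes. That of 8 of 10 leukocyte markers (TYROBP and NCR1 are not analysed here), most of it CD68, was 471 to 650 in WT and 406 to 622 in KO tumours, that of 8 fibroblast markers 2348 to 16754 and 3818 to 28196, and that of 6 endothelial markers 89.3 to 238 and 71.2 to 204. PTPRC, found on all leukocytes, had a mean of 5.37 and was listed at 0 in 3 tumours, and EMCN and PECAM1, of endothelium, were listed at 0 in 15 and 12. The summed endothelial medians were 186 in WT and 96.9 in KO. Summed levels were 50.1 to 12565 in WT and 205 to 12599 in KO tumours for 7 muscle markers, and 9.14 to 95.2 and 23.2 to 72.1 for 4 adipocyte markers. Among single markers VWF, of endothelium, was at -0.77 (limma, adjusted p = 0.245). Their part in the values of the interferon-stimulated genes was not tested. The markers are human genes read in tumours grown in mice, and the treatment of mouse reads is not stated. Whether their values come from cells of the host or from the tumour cells was not tested.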

How the data were processed

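Per the labels' protocols, poly(A) RNA from frozen tumours was sequenced as directional libraries. The deposited table gives 1 normalized signal per gene and tumour, and the tools named in the submitters' processing notes are STAR and DESeq2, on hg38, without versions. Low values are multiples of the value of 1 read, which gave the estimated reads per library, but of values up to 20 reads only 70.7% to 83.9% came out whole within 0.02, so counts were not recovered and no count test was used. The treatment of mouse reads is not stated in the labels.

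Tumours were grouped by the genotype and line in the labels. Genes with a mean of at least 10 were tested as log2(value + 1), a scale that understates the change of low genes, with limma 3.58.1 in R 4.3.3, a trended prior, the line as a random block (consensus correlation 0.0077) and Benjamini-Hochberg adjustment over 16063 genes at 0.05. Lines were compared in a fit with 1 mean per line. On simulated data 73 of 100 genes changed 2-fold and 89 of 100 changed 4-fold were recovered, and 15 of 15863 unchanged genes were called. Whether these shares hold for the measured tumours, with their separate lines and shallow libraries, was not tested.

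The members and lists were chosen with earlier results of these data known. Per-tumour values are given for the members with separated line means, the 4 with the highest mean, the 4 with the smallest genotype difference and the 4 with the smallest F-test p among KO lines, and others by their differences. Up to 3 genes per pathway list are named, by p, and OASL and IKBKE are named besides, as the lower genes of their list. One gene that this rule names is not reported here. IFI44, IFI44L, IFI6, MX1, ISG15, RSAD2, SAMD9L, IRF1 and GBP2 are given by tumour or line outside this rule, chosen after their values were seen. Coordinates are those of the table. Alternatives were another pseudocount, no filter, a common total, library weights, no block, line means as samples, and leaving out the shallow libraries, each line and each tumour.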

Additional observations from a re-analysis of the deposited data

Results flagged for a closer look

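Values were set against the others of their line for each of the 43 genes in the 5 lines with 4 tumours, 215 groups in all, and in 10 of them the highest or lowest value stood apart by the gap to its nearest neighbour. Chance gives about 1 in 20 groups, so the number is no more than chance gives. In WT line 5B2, ISG20 was at 49.1 in 5526 (others 38.8 to 39.8) and GBP1 at 90.5 in 5529 (others 49.6 to 52.4). In WT line 6C9, the shallow library 5533 was low for PARP14 at 119 (others 413 to 451) and for ISG20 at 27.4 (others 35.6 to 37.1), and high for IFI35 at 402 (others 121 to 168). In WT line 6C10, IFI35 was at 98.1 in 5537 (others 114 to 117). In KO line 2B8, USP18 was at 96.2 in 5545 (others 50.4 to 56.3), RSAD2 at 262 in 5542 (others 141 to 159) and GBP2 at 393.5 in 5542 (others 445 to 450). In KO line 1G10, IRF1 was at 299 in 5549 (others 149 to 169).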

How the results depend on the processing

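No paired analysis was possible because the genotypes share no replicate numbers. Under 36 alternatives the 43 genotype differences gave 1548 comparisons with the reported values, of which 1507 kept their sign and side of the threshold, 14 passed it, all with library quality weights, and 27 changed sign. Leaving out 1 tumour at a time, members past the threshold ranged from 0 to 0 for KO against WT, 2F7 and 1G10, and from 0 to 5 for 2B8. Members higher at an unadjusted p under 0.05 ranged from 17 to 26 for KO against WT, 0 to 4 for 2F7, 20 to 33 for 2B8 and 5 to 16 for 1G10, and those of the F tests from 5 to 20 among KO lines and 3 to 11 among WT lines. The highest for 2F7 came without 5530 or 5540, the highest for 1G10 without 5530 and the lowest without 5549, the highest among KO lines without 5533 and the lowest without 5539, the highest among WT lines without 5531 or 5532 and the lowest without 5528 or 5537. The share of all genes also moved with the tumour left out. Among KO lines it was 5.96% without 5533, against 2.22% with all tumours. These ranges stand without that share for each tumour and are not read as results about the members. The medians ranged from 0.26 to 0.35 for KO against WT, 0.05 (without 5538) to 0.18 (without 5540) for 2F7, 0.44 to 0.65 for 2B8 and 0.24 to 0.38 for 1G10. With library quality weights 14 members passed for KO against WT, 18 for 2F7, of them 10 higher (beside 49.2% of all genes called in either direction, median -0.064), 22 for 2B8 (6.51%), 32 among KO lines (40.2%) and 10 among WT lines (11.9%), and 11, 34 and 26 reached an unadjusted p under 0.05 for 2F7 (higher only), among KO lines and among WT lines, beside 55.5%, 48.9% and 30.4% of all genes in either direction. Without line 2B8, 11 members did so for KO against WT, beside 5.34% of all genes in either direction. Without 5532 and 5533, 1 did so for 2F7 (higher only, beside 3.22% of all genes higher) and 22 among KO lines (7.55%). With a common total 1 did so for 2F7 (higher only, beside 2.18% in either direction) and 3 among WT lines (10.3%). Sign changes were those of PARP10 to -0.034 without 5532 and 5533, -0.020 without line 6C10 and -0.10 without 2B8, UBA7 to -0.092 without 2B8, and IFI27 to -0.0297 with line means, -0.14 without 6C10 and -0.16 without 2B8. BST2 changed to 0.044 with a common total, 0.12 without 5532 and 5533, 0.13 with weights, 0.17 without 6C9 and 0.10 without 2F7, and IRF1 to 0.027 without 6C9 and 0.016 without 1G10. Leaving out single tumours gave PARP10 values of -0.018 to 0.087, BST2 of -0.059 to 0.12 and IFI27 of -0.050 to 0.19. The cause of these changes was not tested. The shallow libraries limit low members, since MX2, CMPK2 and IFIT2 are listed at 0 where 1 read is worth 9.14.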
